A study of Mus musculus with 42 samples.

Results

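This account describes 36 mouse genes of the unfolded protein and heat shock responses in cells exposed in culture to bisphenol S (BPS). The cells were pluripotent, germ cell-like and gonadal, and BPS is a bisphenol A substitute used in plastics and thermal paper. Members were the rows bearing the 36 symbols among 22186 genes in the expression matrix, all of them measured in each of the 42 libraries. They were divided by where their proteins work: 18 endoplasmic reticulum (ER) genes, 15 heat shock genes of the cytosol and nucleus, the 2 mitochondrial chaperonin genes Hspd1 and Hspe1, and Serpinh1, which encodes the collagen chaperone HSP47 of the ER. Serpinh1 was kept apart because it has features of both lists, being an ER protein whose gene responds to heat shock.

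There were 14 groups of 3 libraries. Induced pluripotent stem cells (iPSCs) were a male line reprogrammed with doxycycline from the embryonic fibroblasts of 1 fetus of a transgenic line carrying the tetO-4F2A cassette. They represent 1 genotype, shared by the germ cell-like cells made from them, and were maintained with 2i inhibitors and LIF. A dose series exposed them to ethanol vehicle at 0.02% of the medium or to 1, 50 or 100 µM BPS, and a second iPSC experiment compared vehicle with 1 µM. Sertoli cells from the testes and granulosa cells from the ovaries of pups at postnatal day 20 were primary cultures, each pooled from about 5 littermates, and received vehicle or 1 µM BPS. Flask cultures were exposed for 24 h and harvested after a further 24 h. Primordial germ cell-like cells (PGCLCs), made from iPSCs through 2 days as epiblast-like cells and 4 days in aggregates, were either exposed themselves to vehicle or 1 µM BPS for 24 h and collected 8 h later, or were derived from the vehicle and 1 µM iPSCs of the second experiment and never exposed after differentiation began. Both PGCLC sets were sorted on FUT4 and ITGB3. All values below are read counts relative to the library's scaled total (CPM) as the authors computed them, and differences are log2 differences from limma with Benjamini-Hochberg adjustment over all genes tested, called where the adjusted p was 0.05 or lower. Per the methods, exposures were run in 3 replicate flasks, or 3 batches of plates for PGCLCs, and RNA came from 3 cell preparations, so p-values measure the spread between replicate cultures of 1 iPSC line or 1 pooled isolation and not between lines or animals.

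Secretory and membrane proteins fold in the ER, where BiP (Hspa5) and its cofactors bind unfolded chains. When such chains accumulate, the sensors ATF6, IRE1 and PERK raise transcription of ER chaperones and degradation factors, partly through the spliced product of Xbp1. In the cytosol, HSF1 is held inactive by chaperones and, once released, binds heat shock elements in front of the HSP70, HSP40, HSP110 and HSP90 genes. Sertoli and granulosa cells are secretory cells, whereas pluripotent cells are known for constitutively high levels of several cytosolic chaperones.

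Labelled cell types were compared with their defining markers. Between 26693847 and 44524376 reads were recovered per library. The summed level of 5 pluripotency genes was 3754 to 3816 CPM in vehicle iPSCs of the second experiment and 2301 to 2358 CPM in the vehicle PGCLCs of the exposure experiment. Vehicle Sertoli cultures had Sox9 at 336 CPM and Clu at 4404 CPM on average but Rhox5 at only 0.382 CPM. Vehicle granulosa cultures had Foxl2 at 140 CPM and Inha at 1300 CPM, with Fshr at 0.451 and Amh at 0.708 CPM, and 8 stromal markers summed to between 4655 and 4998 CPM against 1202 to 1322 CPM in vehicle Sertoli cultures. Both primary cultures therefore contained stromal transcripts, and their part in the chaperone levels was not tested. In bulk samples, fewer cells of a type and less RNA per cell cannot be told apart.

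Upstream sequences are shown for members whose promoters contain the element for which each response is known and whose levels are described below. RefSeq promoter windows (GRCm38.p6, 250 bases before to 50 after the start) were matched by symbol for 30 of the 36 members, and Hsp90aa1, Hspa8, Hsf1, Hsp90ab1, Manf and Hyou1 had no entry. The ER stress response element, that is CCAAT followed after 9 bases of any kind by CCACG, searched on both strands, occurred in 7 of the 16 ER members with a window (43.8%), in 0 of 11 heat shock members and in 39 of 32851 windows overall (0.119%). Capitals mark the element, read on the opposite strand where it begins with CGTGG, and in Hspa5 also the related motif TGACGTG, found in 2.01% of all windows. The stretch shown for each is the 220 bases before the start, 5′ to 3′ on the gene's strand.
Hspa5, chr2:34771870-34772089, plus strand: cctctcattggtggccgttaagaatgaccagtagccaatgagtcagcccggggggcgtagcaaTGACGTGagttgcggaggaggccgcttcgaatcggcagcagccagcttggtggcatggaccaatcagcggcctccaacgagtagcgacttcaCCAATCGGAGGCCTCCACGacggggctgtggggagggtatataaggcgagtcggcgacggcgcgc
Hsp90b1, chr10:86705445-86705664, minus strand: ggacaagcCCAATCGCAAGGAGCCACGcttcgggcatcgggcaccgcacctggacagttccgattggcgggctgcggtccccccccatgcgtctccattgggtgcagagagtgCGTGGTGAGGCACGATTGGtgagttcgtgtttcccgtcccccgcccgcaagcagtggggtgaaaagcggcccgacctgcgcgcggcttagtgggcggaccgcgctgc
Canx, chr11:50325674-50325893, minus strand: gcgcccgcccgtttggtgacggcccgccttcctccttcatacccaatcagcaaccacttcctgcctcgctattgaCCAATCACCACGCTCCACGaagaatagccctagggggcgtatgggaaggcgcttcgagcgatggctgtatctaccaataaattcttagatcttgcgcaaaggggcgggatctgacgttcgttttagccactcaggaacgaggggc
Dnajc3, chr14:118937712-118937931, plus strand: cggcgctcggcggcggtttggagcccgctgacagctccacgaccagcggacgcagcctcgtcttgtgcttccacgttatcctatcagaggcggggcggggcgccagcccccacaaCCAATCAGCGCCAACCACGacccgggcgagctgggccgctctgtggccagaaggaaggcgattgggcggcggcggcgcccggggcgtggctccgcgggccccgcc
Pdia6, chr12:17266369-17266588, plus strand: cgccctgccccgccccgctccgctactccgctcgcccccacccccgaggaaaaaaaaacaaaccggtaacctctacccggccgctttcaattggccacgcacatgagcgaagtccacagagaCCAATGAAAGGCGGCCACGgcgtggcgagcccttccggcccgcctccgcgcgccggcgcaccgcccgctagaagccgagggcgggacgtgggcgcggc
Creld2, chr15:88819426-88819645, plus strand: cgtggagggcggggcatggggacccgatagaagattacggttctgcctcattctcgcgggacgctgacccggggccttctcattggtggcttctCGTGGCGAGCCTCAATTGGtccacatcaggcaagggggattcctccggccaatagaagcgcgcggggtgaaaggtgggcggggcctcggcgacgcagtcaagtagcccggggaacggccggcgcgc
Calr, chr8:84846932-84847151, minus strand: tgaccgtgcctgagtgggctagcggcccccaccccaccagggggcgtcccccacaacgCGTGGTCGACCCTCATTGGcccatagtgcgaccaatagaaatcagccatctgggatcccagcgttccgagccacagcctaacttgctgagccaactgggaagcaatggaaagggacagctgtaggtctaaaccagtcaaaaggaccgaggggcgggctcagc

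Heat shock elements were searched as an inverted pair, GAANNTTC or TTCNNGAA, which read the same on both strands. A pair occurred in 8 of 11 heat shock members with a window (72.7%), in both mitochondrial genes and in 0 of 16 ER members, against 15.1% of all windows. Capitals mark the pair in the 150 bases before the start of a representative inducible HSP70 gene, the small heat shock protein gene and an HSP40 gene.
Hspa1b, chr17:34959239-34959388, minus strand: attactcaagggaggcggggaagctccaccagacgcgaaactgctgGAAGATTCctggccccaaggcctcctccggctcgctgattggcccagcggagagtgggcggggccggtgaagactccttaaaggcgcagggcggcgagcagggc
Hspb1, chr5:135887769-135887918, plus strand: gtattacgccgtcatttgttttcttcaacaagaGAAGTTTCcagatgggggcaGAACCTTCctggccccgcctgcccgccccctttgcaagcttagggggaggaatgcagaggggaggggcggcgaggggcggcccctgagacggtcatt
Dnaja1, chr4:40722318-40722467, plus strand: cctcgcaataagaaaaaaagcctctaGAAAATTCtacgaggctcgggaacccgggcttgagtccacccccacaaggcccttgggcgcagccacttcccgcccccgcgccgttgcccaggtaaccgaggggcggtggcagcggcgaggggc
Chordc1, chr9:18292263-18292285, plus strand, 4 bases before to 19 after the start: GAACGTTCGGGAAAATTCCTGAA

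A run of 3 adjoining units in alternating orientation starts the element shown for Chordc1. Such a run occurred in 2 of 11 heat shock members with a window (18.2%) and in 0.603% of all windows. Here and above a member counted if any of its windows matched, whereas the shares of all windows count each window singly. Hspd1 and Hspe1 sit head to head on chromosome 1 (55077833 to 55088243 and 55088148 to 55091317), and these spans overlap. Counted from the start site of each promoter window, the same run of units lay 72 to 89 bases before the Hspe1 start. It lay 127 to 144 bases before the start site of the Hspd1 window. That window lies wholly inside the Hspd1 span given here, so by this span the run falls within the gene. The Hspa1a and Hspa1b windows were identical at 296 of 300 bases (98.7%), and their transcripts are likewise near copies, so how reads were divided between these 2 genes is uncertain. A match describes letters in a window and is not evidence of binding.

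The first comparison asked how chaperone levels differ between the cell types before any BPS. ER genes together were highest in somatic cells, and heat shock genes were highest in iPSCs. The 18 ER genes summed to 6121 to 6184 CPM in vehicle iPSCs of the second experiment, 8829 to 9085 CPM in Sertoli cells, 7631 to 7878 CPM in granulosa cells, 4462 to 4638 CPM in PGCLCs of the exposure experiment and 5165 to 5226 CPM in derived PGCLCs. No 2 of these 5 ranges overlapped. The 15 heat shock genes summed to 18450 to 18850 CPM in the same iPSCs, against 8209 to 8384 CPM in Sertoli and 7172 to 7528 CPM in granulosa cells. In both PGCLC sets the sums were intermediate, 11940 to 12120 and 12050 to 13350 CPM, and the latter ranges overlapped.

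**Figure D1:**
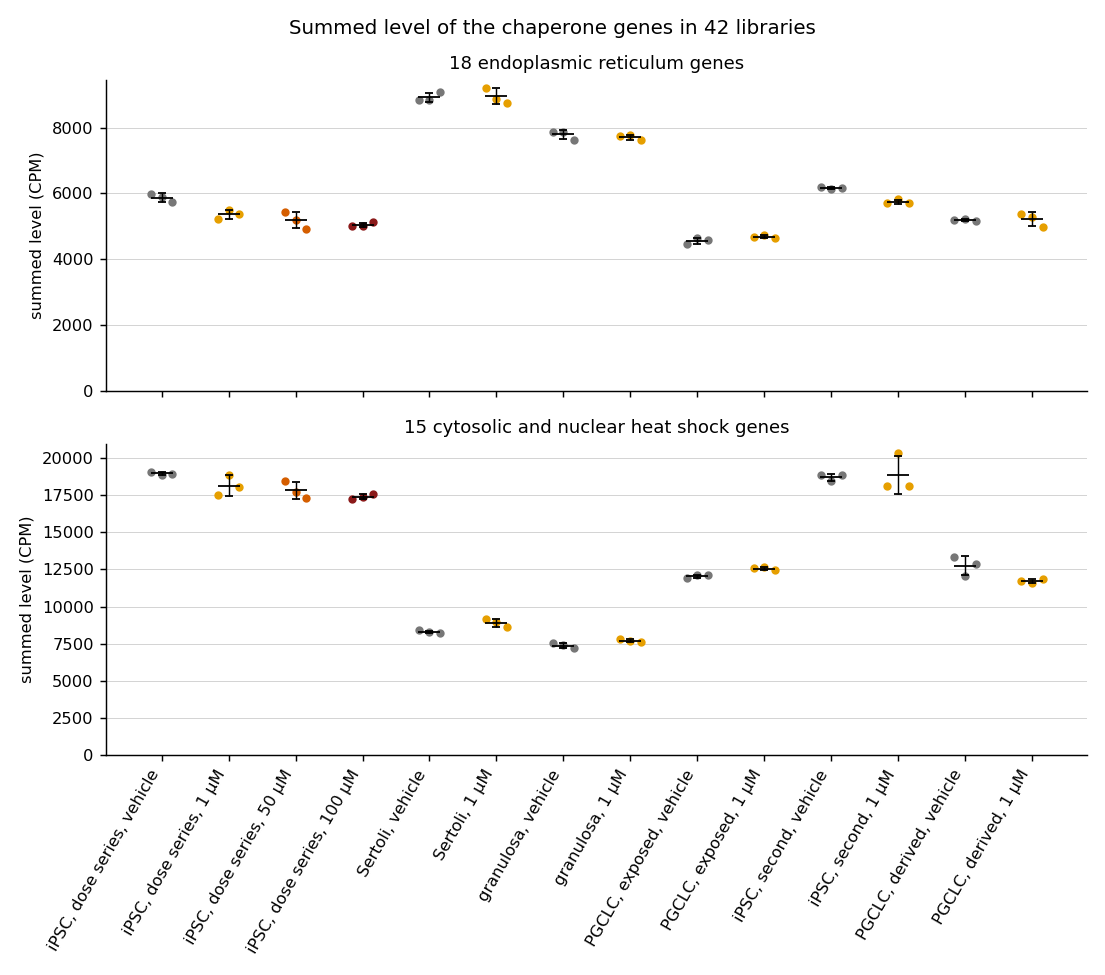
Summed CPM of the 18 endoplasmic reticulum genes (upper axis) and the 15 cytosolic and nuclear heat shock genes (lower axis) in each of the 42 libraries. Points are libraries, bars the mean and SD of 3, grey is vehicle, yellow 1 µM, orange 50 µM and dark red 100 µM; the ER sums of Sertoli cells, 8829 to 9085 CPM with vehicle, stand above all iPSC sums, whereas the order is reversed for heat shock genes.

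Between vehicle Sertoli cells and vehicle iPSCs of the second experiment, 16 of 18 ER members were higher and 2 lower, with 43.7% of all genes tested called higher and 45.2% lower (89% in all). The median log2 difference was 0.76 over ER members, -0.99 over heat shock members and -0.04 over all genes. Among heat shock members 4 were higher and 11 lower. Granulosa cells, where 43.1% of genes were higher and 45.2% lower (88.2%), had 13 ER members higher and 2 lower (median 0.49), and again 4 heat shock members higher and 11 lower (median -1.28). Since nearly all genes differed between cell types, the direction and size of each member carry more than its being called.

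Among the ER regulators, Xbp1 (chromosome 11, 5520641 to 5525993) encodes the transcription factor downstream of IRE1, and gene-level counts do not separate its spliced form. It measured 46.9, 47.1 and 47.4 CPM in the iPSC libraries, 189, 184 and 193 CPM in Sertoli cells and 137, 143 and 138 CPM in granulosa cells. The 3 groups did not overlap, and the log2 differences from iPSCs were 2.00 and 1.56. Herpud1, a membrane organiser of ER-associated degradation, was higher by 0.87 in Sertoli and 1.72 in granulosa cells. Sel1l, the scaffold of the HRD1 degradation complex, was higher by 1.69 and 1.67, and the BiP cochaperones Dnajb9 and Dnajc3 by 1.46 and 1.27 and by 1.23 and 1.69, respectively.

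Hspa5 itself measured 667, 670 and 685 CPM in these iPSCs against 1284, 1322 and 1355 CPM in Sertoli and 1312, 1316 and 1295 CPM in granulosa cells. The iPSC libraries lay well below the others, and the difference was 0.97 and 0.96 on the log2 scale. Manf, a secreted factor that binds BiP, was higher by 1.34 and 0.72. The exceptions were the lectin chaperone Canx and the disulfide isomerase Pdia4, lower in Sertoli cells by 0.19 and 0.39 on the log2 scale, and the lectin chaperone Calr and the ER stress gene Creld2, lower in granulosa cells by 0.38 and 0.30.

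The heat shock list divided differently. Hsp90aa1, the inducible cytosolic HSP90, measured 3852, 3808 and 3929 CPM in iPSCs, 1122, 1107 and 1094 CPM in Sertoli cells and 849, 834 and 824 CPM in granulosa cells, a log2 difference of -1.80 and -2.21. The constitutive HSP70 gene Hspa8 differed from iPSCs by -0.99 in Sertoli and -0.89 in granulosa cells, the HSP110 gene Hsph1 by -1.68 and -1.43, and the HSP90 cochaperone Fkbp4 by -1.87 and -2.17. These were large and concordant in both somatic types, and no iPSC library overlapped a somatic one. Per kilobase of transcript, Hsp90aa1 stood at 0.438 of the level of its constitutive paralogue Hsp90ab1 in vehicle iPSCs of the second experiment, 0.605 in those of the dose series, 0.286 in Sertoli cells and 0.237 in granulosa cells.

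Bag3, an HSP70 cochaperone of selective autophagy, went the other way. It measured 6.77, 5.75 and 6.26 CPM in iPSCs, 99.3, 98.3 and 103 CPM in Sertoli cells and 87.5, 92.3 and 90.4 CPM in granulosa cells, that is 4.0 and 3.84 higher on the log2 scale. Hspb1, the small heat shock protein HSP27, parted the somatic types. Its libraries read 577, 588 and 574 CPM in Sertoli cells but 35.5, 31.2 and 31.8 CPM in granulosa cells, a log2 difference of 4.14 between them, with iPSCs in between at 337, 326 and 355 CPM.

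Serpinh1 (chromosome 7, 99345375 to 99353239) showed the widest range between cell types of any member. It measured 99.7, 94.6 and 98.5 CPM in iPSCs of the second experiment, 2212, 2277 and 2265 CPM in Sertoli cells and 3279, 3166 and 3248 CPM in granulosa cells. The log2 differences from iPSCs were 4.53 and 5.05, and the summed fibrillar collagens, whose folding HSP47 assists, stood beside them at 31.3 to 33.8, 2274 to 2348 and 6808 to 7101 CPM. Of the mitochondrial pair, Hspd1 was lower than in iPSCs by 1.22 in Sertoli and 0.72 in granulosa cells on the log2 scale and Hspe1 by 1.35 and 1.03.

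Between the somatic types, 10 ER members were higher in Sertoli cells and 5 lower, and 6 heat shock members were higher and 7 lower, against 33.7% of all genes higher and 35.9% lower (69.6%). Vehicle iPSCs of the 2 experiments were not equal either. Of the 36 members 10 were higher and 6 lower in the second experiment than in the dose series, against 15.8% and 12.3% of all genes (28.1%), so levels in iPSCs carry a difference between experiments of this kind.

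**Figure D2:**
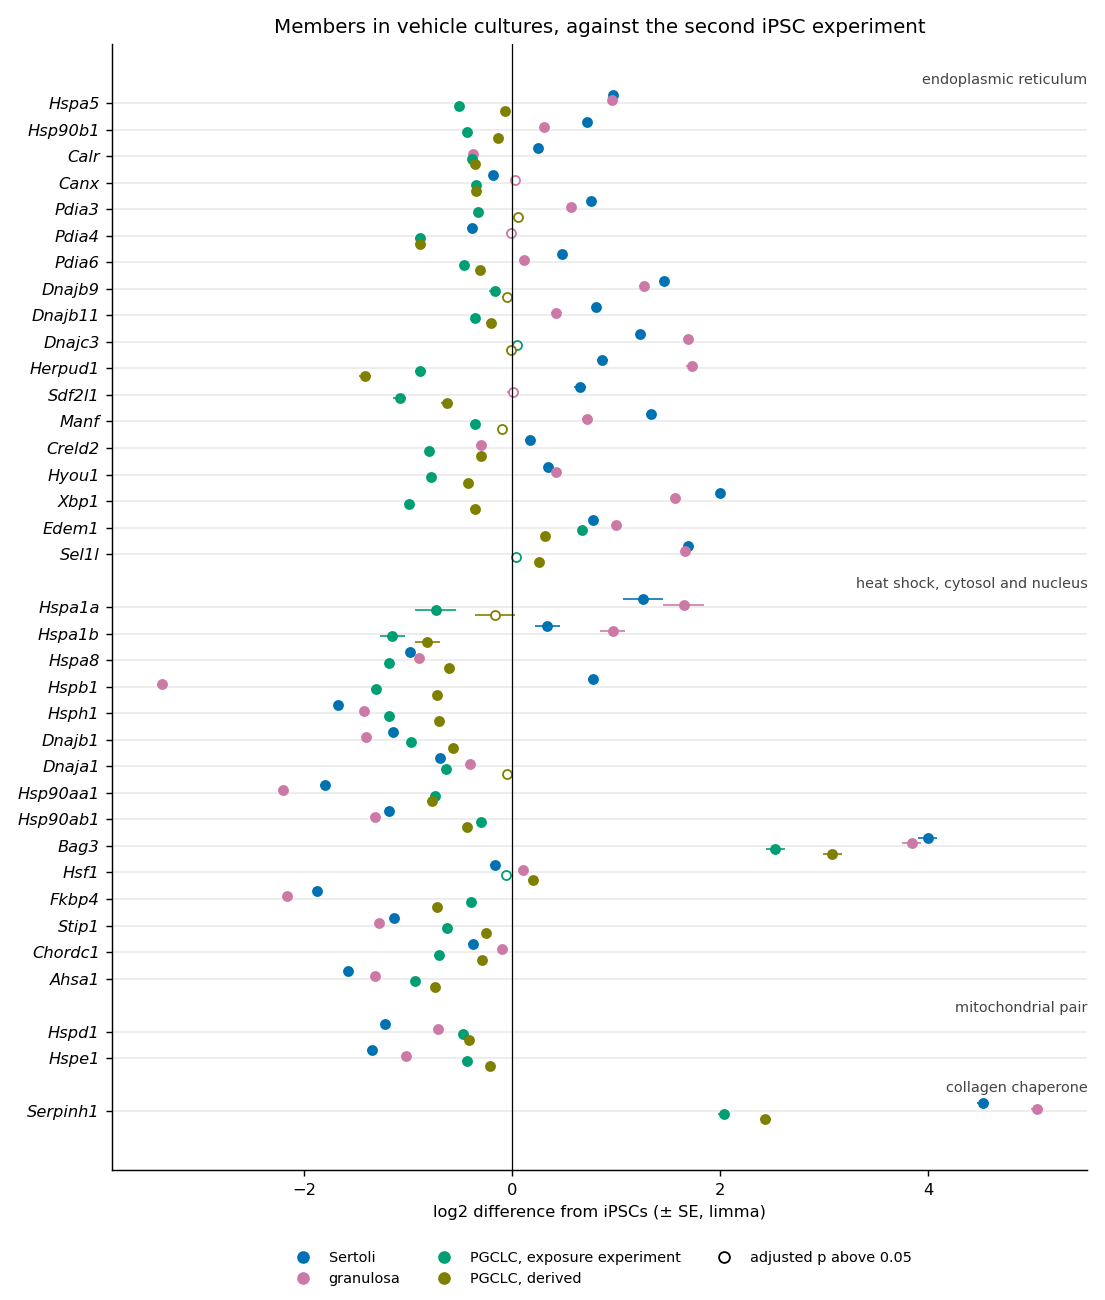
Log2 difference of each of the 36 members between vehicle cultures and vehicle iPSCs of the second experiment (limma estimate ± SE, 3 libraries per group), with open symbols where the adjusted p exceeded 0.05. Most ER members lie to the right for Sertoli and granulosa cells, most heat shock members lie to the left for all 4 cell types, and Bag3 (2.53 to 4.0) and Serpinh1 (2.03 to 5.05) lie far to the right.

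In PGCLCs both lists were below iPSCs. For the exposure experiment, where 36.5% of all genes were higher and 37.7% lower (74.2%), 15 ER members were lower and 1 higher (median -0.41) and 13 heat shock members were lower and 1 higher (median -0.74). For derived PGCLCs, where 35.9% were higher and 37.4% lower (73.3%), the ER list had 12 lower and 2 higher and the heat shock list 11 lower and 2 higher. Edem1, which extracts misfolded glycoproteins for degradation, was the ER member raised in the first set, by 0.67, and Bag3 the heat shock member, by 2.53 there and 3.08 in derived PGCLCs. Hspa8 was lower by 1.19 and 0.61 on the log2 scale in the 2 sets, and Herpud1 by 0.88 and 1.42. Derived PGCLCs exceeded the other set for 25 members and were below it for 4, with 22.7% of all genes higher and 19.9% lower (42.5%). The 2 sets were made in separate experiments, and vehicle was given at different stages and in different vessels, iPSC flasks or PGCLC plates. These cannot be told apart from the differences between the sets.

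**Figure D3:**
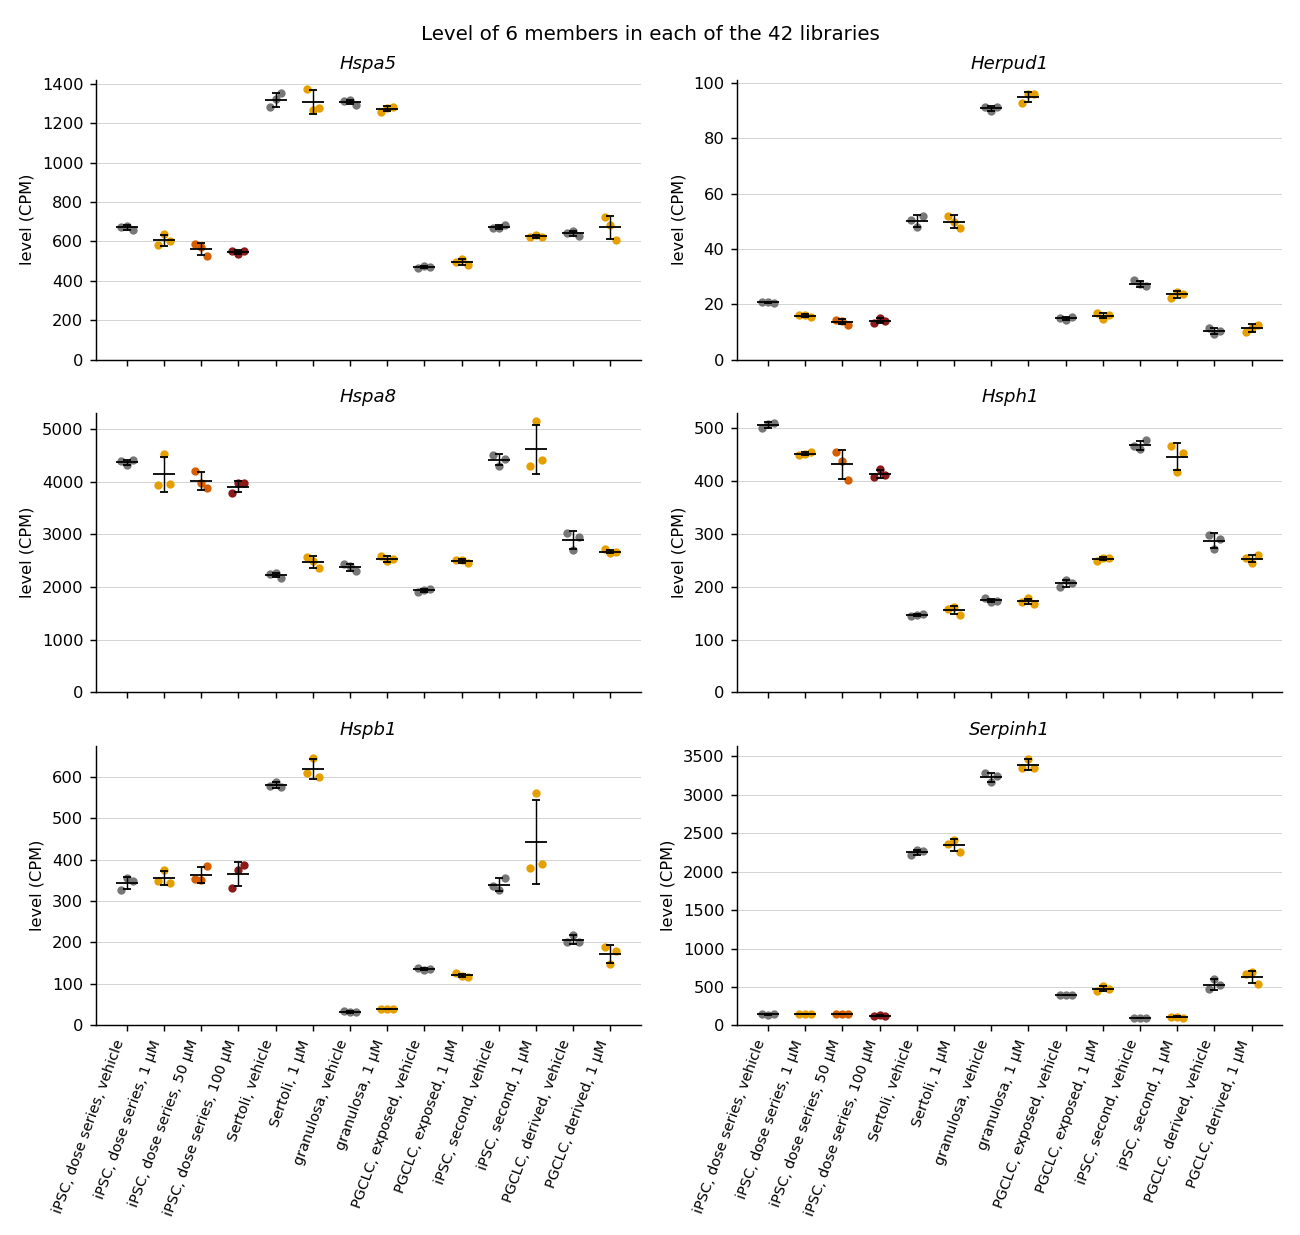
CPM of Hspa5, Herpud1, Hspa8, Hsph1, Hspb1 and Serpinh1 in each of the 42 libraries, with the mean and SD of 3 libraries per group; grey is vehicle, yellow 1 µM, orange 50 µM and dark red 100 µM BPS. Hspa8 and Hsph1 are highest in iPSCs, Hspb1 is lowest in granulosa cells, at 31.2 to 35.5 CPM with vehicle, and 1 of 3 libraries of the second iPSC experiment at 1 µM stands above the others for Hspa8 and Hspb1.

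The dose series addressed how iPSCs respond to increasing BPS. The ER genes Herpud1, Pdia4 and Hyou1 and the HSP110 gene Hsph1 were lower at each dose, and Hspa5, Hsp90b1, Fkbp4 and Stip1 were lower and Bag3 higher at 50 and 100 µM. At 1 µM, 3 of 18 ER members and 1 of 15 heat shock members were lower and none was higher, against 2.94% of all genes called lower and 5.61% higher (8.54% in all). At 50 µM, 8 ER members were lower, and among heat shock members 3 were lower and 1 higher, against 13.3% of genes lower and 13.1% higher (26.4%). At 100 µM, 9 ER members were lower, with 5 heat shock members lower and 1 higher, against 15.4% and 15.3% (30.7%). After upper-quartile scaling the genes called numbered 1110 higher and 298 lower at 1 µM in place of 917 and 480, 2697 and 1449 at 50 µM in place of 2139 and 2175, and 3075 and 1734 at 100 µM in place of 2503 and 2520. The vehicle libraries are shared by all 3 contrasts, so the doses are not independent of each other.

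Herpud1 (chromosome 8, 94386429 to 94395371) had the largest decrease among ER members at each dose. It measured 20.9, 20.7 and 20.5 CPM with vehicle, 15.98, 16.3 and 15.3 CPM at 1 µM, 14.3, 14.1 and 12.6 CPM at 50 µM and 13.3, 15.2 and 13.9 CPM at 100 µM. Every exposed library was below every vehicle library, and the 50 and 100 µM libraries overlapped. The log2 differences were -0.38 (SE 0.07, adjusted p = 0.00216), -0.60 (adjusted p = 8.18e-06) and -0.56 (adjusted p = 1.77e-05) at the 3 doses.

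Hspa5 measured 676, 680 and 658 CPM with vehicle, 580, 636 and 602 CPM at 1 µM, 587, 571 and 527 CPM at 50 µM and 549, 537 and 553 CPM at 100 µM. All 9 exposed libraries lay below the vehicle range. The difference of -0.15 at 1 µM did not pass the test (adjusted p = 0.0878), whereas -0.26 at 50 µM (adjusted p = 0.00144) and -0.30 at 100 µM (adjusted p = 4.09e-04) did. Its ER HSP90 partner Hsp90b1 fell from 1115, 1099 and 1066 CPM to 916, 878 and 917 CPM at 100 µM, or by 0.28 on the log2 scale (adjusted p = 0.00196).

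Of the folding enzymes and lectins, Pdia4 was lower at every dose. Its libraries read 368, 357 and 342 CPM with vehicle, 304, 315 and 305 CPM at 1 µM, 302, 297 and 279 CPM at 50 µM and 293, 292 and 300 CPM at 100 µM. The groups did not overlap with vehicle, and the difference was -0.21 at 1 µM (adjusted p = 0.0109) and -0.28 and -0.27 at the higher doses. Hyou1, the large HSP70-like nucleotide exchange factor of BiP, was also lower at each dose, by 0.25 (adjusted p = 0.0227), 0.32 and 0.35 on the log2 scale. Canx fell by 0.29 at both 50 µM (adjusted p = 9.02e-04) and 100 µM (adjusted p = 8.71e-04), Pdia6 by 0.26 and 0.31, and Dnajc3, which inhibits PERK and assists BiP, by 0.25 and 0.16. Manf was called at 100 µM alone, where it fell by 0.27 (adjusted p = 0.0249) from 139, 133 and 135 CPM to 103, 115 and 121 CPM.

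The other 9 ER members passed the test at no dose. They were the lectin Calr, the isomerase Pdia3, the cochaperones Dnajb9, Dnajb11 and Sdf2l1, the folding factor Creld2, the factor Xbp1 and the degradation genes Edem1 and Sel1l. Dnajb9, an IRE1-responsive gene, measured 15.5, 14.7 and 14.5 CPM with vehicle and 14.9, 15.3 and 14.8 CPM at 100 µM, so its groups overlapped. The median log2 difference over ER members was -0.11 at 1 µM, -0.10 at 50 µM and -0.15 at 100 µM, against -0.01, 0.00 and 0.00 over all genes tested, and 16, 17 and 16 of the 18 were negative. Of the 7 members with the ER stress response element in their promoter window, 0 were lower at 1 µM and 5 at both 50 and 100 µM; Creld2 and Calr passed at no dose. Of the 9 members with a window and no such element, 2 were lower at each dose. Of all genes tested, 2.94%, 13.3% and 15.4% were lower in order of dose. Both groups of members are small, and the difference between them was not tested.

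Among heat shock members, Hsph1 fell at every dose. It measured 499, 506 and 510 CPM with vehicle, 449, 450 and 455 CPM at 1 µM, 454, 437 and 401 CPM at 50 µM and 407, 422 and 412 CPM at 100 µM, with no exposed library reaching the vehicle range. The log2 difference was -0.16 (adjusted p = 0.048), -0.23 (adjusted p = 0.00218) and -0.29 (adjusted p = 3.20e-04). Fkbp4, an immunophilin of steroid receptor complexes, fell by 0.21 at 50 µM (adjusted p = 0.0133) and 0.31 at 100 µM (adjusted p = 6.65e-04). Stip1, which links HSP70 to HSP90, fell by 0.21 and 0.27, and Ahsa1, the activator of the HSP90 ATPase, by 0.21 at 100 µM.

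Bag3 rose. Its libraries read 6.96, 7.46 and 9.68 CPM with vehicle, 9.49, 10.9 and 13.2 CPM at 50 µM and 11.99, 11.5 and 10.3 CPM at 100 µM, and the 50 µM libraries overlapped the highest vehicle library. The log2 difference was 0.48 (adjusted p = 0.00636) and 0.50 (adjusted p = 0.00427). The 2 inducible HSP70 genes were low throughout. Hspa1b was lower by 0.42 at 100 µM (adjusted p = 0.0203). The 8 rows of Hspa1 copies summed, a sum added after the data were seen, went from 14.4 to 12.5 CPM. That is a log2 difference of -0.21 (adjusted p = 0.0436). Hspa1a, Hspa8, Hspb1, Dnajb1, Dnaja1, Hsp90aa1, Hsp90ab1, Hsf1 and Chordc1 were called at no dose. Hspa8 measured 4388, 4310 and 4404 CPM with vehicle and 3784, 3965 and 3969 CPM at 100 µM. Its libraries at 100 µM, and those of Dnajb1, Dnaja1, Hsp90ab1 and Chordc1, lay below vehicle without overlap, whereas those of the rest overlapped. Such separation was common among all genes. Already at 50 µM, 7181 of the 16349 genes tested did not overlap with vehicle, so it is not read as a result about these members. Median differences over the list were -0.07, -0.08 and -0.14 in order of dose.

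Serpinh1 was called at the highest dose. Its libraries read 145, 140 and 146 CPM with vehicle, 149, 152 and 146 CPM at 1 µM, 146, 146 and 149 CPM at 50 µM and 119, 131 and 119 CPM at 100 µM. The last 3 lay below all others, a difference of -0.23 from vehicle (adjusted p = 0.00148). It was the single member called between 100 and 1 µM (-0.28, adjusted p = 0.0172, 0.44% of genes called, 0.116% lower and 0.324% higher) and between 100 and 50 µM (-0.26, adjusted p = 0.0464, 0.055% of genes called, 0.0306% lower and 0.0245% higher). The call between 100 and 50 µM was lost whichever of their 6 libraries was left out and in 8 of 10 other settings, and that between 100 and 1 µM was lost without the first or the third 100 µM library, with all 42 libraries in the fit and with only the groups compared. Among mitochondrial members Hspd1 was lower at 50 µM by 0.20 (adjusted p = 0.0128) and at 100 µM by 0.23 (adjusted p = 0.00596), and Hspe1 was called at neither.

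**Figure D4:**
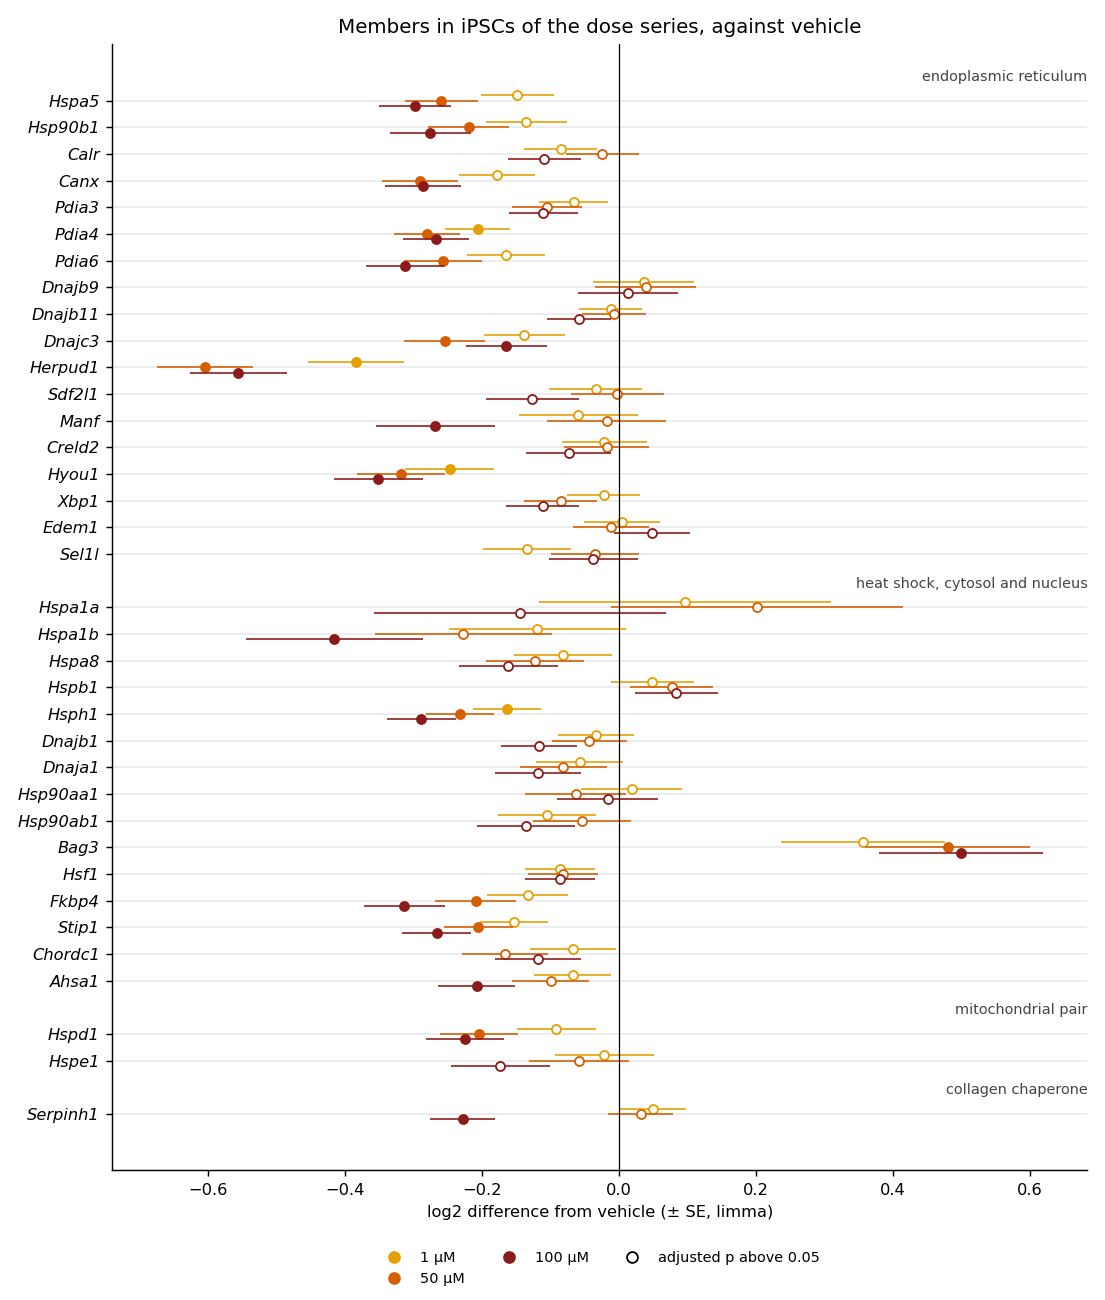
Log2 difference from vehicle of each of the 36 members in iPSCs of the dose series at 1, 50 and 100 µM BPS (limma estimate ± SE, 3 libraries per group and a shared vehicle), with open symbols where the adjusted p exceeded 0.05. Most points lie left of 0, Herpud1 reaches -0.60, and Bag3 is the only member with filled points to the right.

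Other genes of these pathways, listed by function, were counted in the same fits. All 8 subunits of the cytosolic chaperonin TRiC were lower at 50 µM (median -0.21) and at 100 µM (median -0.26), with Cct6a lower by 0.25 and 0.31 on the log2 scale. Of 27 heat shock cochaperones 6 were higher and 8 lower at 50 µM, and 7 higher and 11 lower at 100 µM, that is 22.2% and 29.6%, then 25.9% and 40.7%, of the list. The small heat shock protein genes Cryab and Hspb8 were among those that rose, by 1.07, 1.40 and 1.16 and by 0.31, 0.38 and 0.35 in order of dose, while Fkbp5 fell. Of 13 further ER folding genes 2 were lower at 1 µM, 2 at 50 µM and 3 at 100 µM, or 15.4%, 15.4% and 23.1% of the list against 2.94%, 13.3% and 15.4% of all genes, so the share at 50 µM was near that of all genes. Among them P4hb was lower by 0.16, 0.24 and 0.27 and Sec61a1 by 0.16, 0.18 and 0.18 on the log2 scale.

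Outputs of the PERK branch followed the same direction where they were called, apart from Ppp1r15a, which rose by 0.23 at 50 µM. Of 6 listed, Chac1, a glutathione-degrading enzyme, fell by 0.40, 0.46 and 0.86 in order of dose, Trib3 by 0.18 at 50 µM and 0.34 at 100 µM, and Sesn2 by 0.15 at 100 µM. Among 9 sensors and factors, Creb3 was higher at each dose, by 0.52, 0.72 and 0.51, and the protease gene Mbtps2, needed for ATF6 activation, lower by 0.27, 0.49 and 0.42 on the log2 scale.

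Several counts rested on single libraries or settings. The refit counts that follow are of members alone, without the share of all genes called in the same refit. Whether a change in count was particular to the members was not tested. Without the second 1 µM library, which stood nearest to vehicle for several genes (Hspa5 636 CPM, Hsp90b1 1054 CPM), 7 ER members and 5 heat shock members were called at 1 µM. Without the first or the second vehicle library 1 ER member was, and the single heat shock call at this dose was lost when the first or second vehicle library or the first or the third 1 µM library was left out. At 50 µM 2 heat shock members in place of 4 were called without the third 50 µM library, and at 100 µM 11 in place of 6 with only the groups compared. Ribosomal-type RNA (the 2 rows Mir6236 and Rn28s1) took 0.0612 to 0.288% of reads with vehicle, 0.043 to 0.428% at 1 µM, 0.0351 to 0.0541% at 50 µM and 0.0358 to 0.0565% at 100 µM, so it moved with the higher doses. The 8 PGC markers summed to 179.5 to 182.2 CPM with vehicle, against 142.3 to 153.2 CPM at 1 µM, 137.3 to 144.4 CPM at 50 µM and 138.7 to 142 CPM at 100 µM, below vehicle at each dose without overlap and with Fut4 at 0.139 CPM or lower throughout, while the 5 pluripotency genes summed to 3606 to 3686 CPM with vehicle and to 3566 to 3748 CPM over the doses. The part of either in these differences was not tested.

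In Sertoli cells the question was whether 1 µM acts on a somatic partner of the germ line. The HSP70 system genes Hspa8 and Dnaja1 rose slightly, and no ER gene passed the test. Of the 36 members 3 were called, all higher, namely these 2 and Hspe1, against 3.76% of all genes higher and 1.48% lower (5.24%). That is 588 genes higher and 232 lower, which became 266 and 392 after upper-quartile scaling, when 1 heat shock member was called. Hspa8 measured 2239, 2263 and 2176 CPM with vehicle and 2576, 2486 and 2355 CPM with BPS, without overlap, a difference of 0.15 (adjusted p = 0.023). Dnaja1, an HSP40 partner of HSP70, went from 179, 179 and 178 CPM to 201, 197 and 195 CPM, also without overlap, or 0.15 (adjusted p = 0.0124).

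Hspe1, the lid of the mitochondrial chaperonin, went from 115, 109 and 104 CPM to 123, 124 and 117 CPM, a difference of 0.15 (adjusted p = 0.0322). The vehicle and BPS libraries again did not overlap. Over heat shock members the median difference was 0.09, with 12 of 15 positive, against 0.00 over ER members and 0.01 over all genes. Of the wider lists, TRiC had 4 of 8 subunits higher (50%), and 5 of 27 cochaperones were higher (18.5%), among them Ppid (0.21), Cdc37 (0.16) and Ptges3 (0.14). Of the 6 fibrillar collagens tested 3 were lower, while Serpinh1 was not called. The heat shock calls in Sertoli cells were sensitive to each library, ranging from 0 to 4 when any 1 was left out. The 7 Sertoli markers summed to 5674 to 5899 CPM with vehicle and 4592 to 5292 CPM with BPS, the 8 stromal markers to 1202 to 1322 and 1059 to 1176 CPM and the 3 male germ cell markers to 14.9 to 16.7 and 9.49 to 12.6 CPM, none of these markers being at 0 in every library, and their part in the calls was not tested.

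Granulosa cells showed 1 called member. Hspb1, at its lowest of any cell type, went from 35.5, 31.2 and 31.8 CPM to 40.7, 39.5 and 39.0 CPM without overlap, a difference of 0.28 (adjusted p = 0.0034), where 1.95% of all genes were called higher and 0.656% lower (2.6%), or 306 and 103 genes, which became 194 and 160 after upper-quartile scaling. The 7 Sertoli markers in these cultures summed to 2238 to 2376 CPM with vehicle and 2490 to 2757 CPM with BPS without overlap, none at 0 in every library, and Hspb1 was far higher in Sertoli cells; the part of these transcripts in the Hspb1 difference was not tested. Hspa8 measured 2433, 2392 and 2300 CPM with vehicle and 2588, 2484 and 2525 CPM with BPS, a difference that did not pass. The median was -0.02 over ER members, 0.04 over heat shock members and 0.02 over all genes. The heme oxygenase gene Hmox1 (0.14) and the asparagine synthetase gene Asns (0.12) were the only genes called in the wider lists. When the response of Sertoli cells was tested against that of granulosa cells directly, 0 members differed in limma, with 1.28% of all genes called, which does not show that the 2 cell types respond alike.

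PGCLCs exposed themselves to 1 µM showed the most called members of any 1 µM comparison. Hspa8, Hsph1, Dnajb1 and Dnaja1 rose, whereas Hspb1 and Hsp90aa1 fell and Hspa5 was not called. Of 18 ER members 7 were higher and 0 lower, and of 15 heat shock members 8 were higher and 2 lower, against 15.4% of all genes higher and 11.3% lower (26.6%). The median difference was 0.08 over ER members and 0.17 over heat shock members, against 0.02 over all genes.

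Hspa8 (chromosome 9, 40801276 to 40805202) measured 1905, 1948 and 1958 CPM with vehicle and 2518, 2513 and 2448 CPM with BPS. The 2 groups were far apart relative to their spread, and the difference was 0.36 (SE 0.03, adjusted p = 3.41e-07). Its nucleotide exchange factor Hsph1 (chromosome 5, 149616843 to 149636498) went from 199, 213 and 206 CPM to 249.3, 253 and 255 CPM, a rise of 0.29 (adjusted p = 9.53e-06). The HSP40 gene Dnajb1 went from 74.8, 79.95 and 76.9 CPM to 97.9, 97.7 and 90.4 CPM, a rise of 0.30 (adjusted p = 7.37e-05).

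Dnaja1 rose by 0.23 (adjusted p = 6.55e-05). Chordc1, an HSP90 cochaperone, rose by 0.27 (adjusted p = 6.24e-05) from 65.5, 66.02 and 67.2 CPM to 79.7, 81.4 and 78.3 CPM. Hsf1 itself rose by 0.17 (adjusted p = 0.00464), from 61.7, 62.2 and 59.5 CPM to 71.9, 66.9 and 67.7 CPM. Ahsa1 and Stip1 rose by 0.14 and 0.08. The inducible genes Hspa1a (0.55, adjusted p = 0.098) and Hspa1b (0.29, adjusted p = 0.152) did not pass singly. Their 8 rows of copies summed did, from 8.40, 9.17 and 10.5 CPM to 12.1, 12.3 and 12.5 CPM, a log2 difference of 0.40 (adjusted p = 0.00234). This sum was added after the data were seen and was not put through the refits.

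The remaining heat shock members behaved differently. Hspb1 fell from 138, 134 and 137 CPM to 125, 119 and 117 CPM, or by 0.18 on the log2 scale (adjusted p = 0.00122). Hsp90aa1 fell from 2290, 2312 and 2314 CPM to 2142, 2079 and 2071 CPM, or by 0.14 (adjusted p = 0.00176), whereas Hsp90ab1 differed by -0.01 (adjusted p = 0.891). Bag3 and Fkbp4 were not called. Of the 8 heat shock members with a pair in their promoter window 3 were higher and 1 lower. Of the 3 with a window and no pair, 3 were higher, against 15.4% of all genes higher and 11.3% lower.

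Among ER members, Xbp1 measured 22.4, 23.6 and 25.2 CPM with vehicle and 27.0, 28.4 and 29.5 CPM with BPS, and Dnajc3 56.8, 61.8 and 60.8 CPM and 68.3, 67.7 and 67.4 CPM. Neither pair of groups overlapped, and the rises were 0.26 (adjusted p = 0.00354) and 0.18 (adjusted p = 0.00328). Hyou1 (0.10), Sel1l (0.14), Pdia3 (0.09), Pdia4 (0.10) and Sdf2l1 (0.20) also rose. Of the 7 members with the ER stress response element 1 was higher. Of the 9 with a window and no such element 5 were higher, against 15.4% of all genes. Hspa5, at 467, 475 and 472 CPM and 494, 509 and 481 CPM, did not overlap between the groups but its difference of 0.07 did not pass (adjusted p = 0.0869), and Hsp90b1, Herpud1, Manf, Creld2 and Dnajb9 were not called.

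Serpinh1 rose by 0.25 (adjusted p = 3.20e-04), from 398, 401 and 400 CPM to 442, 507 and 476 CPM, and Hspd1 by 0.09 (adjusted p = 0.0243). Hspe1, in contrast, narrowly missed the threshold at 0.08. Of 11 genes of ER-associated degradation 4 were higher, among them Syvn1 (0.24) and Edem2 (0.15), and Derl3 was lower by 0.53. Of 27 cochaperones 6 were higher and 3 lower, or 22.2% and 11.1% against 15.4% and 11.3% of all genes, the latter including Hspb8 (-0.55) and Hmox1 (-0.17). TRiC subunits did not pass (0 of 8), Ern1, which encodes IRE1, was lower by 0.29, and Trib3 was lower by 0.24.

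Markers of cell identity moved in the same libraries. The 5 pluripotency genes summed to 2301 to 2358 CPM with vehicle and 1809 to 2015 CPM with BPS, and 8 PGC genes, which include both sort markers, to 275 to 283 and 233 to 265 CPM. The 8 stromal genes summed to 79.4 to 84.2 and 86.6 to 95.4 CPM, Dcn and Lum being near 0 in both. None of the 3 pairs of ranges overlapped, 0 markers of the 3 lists were at 0 in every library, and their part in the chaperone differences was not tested. The upper-quartile scaling left 3 ER members called, 2 higher and 1 lower, and moved the split of all genes from 2511 higher and 1843 lower to 1768 higher and 2539 lower. Without the first or the third vehicle library or the second BPS library, 3 ER members were called, with 4 called without the third BPS library, while the heat shock count was 9 or 10 whichever library was left out.

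**Figure D5:**
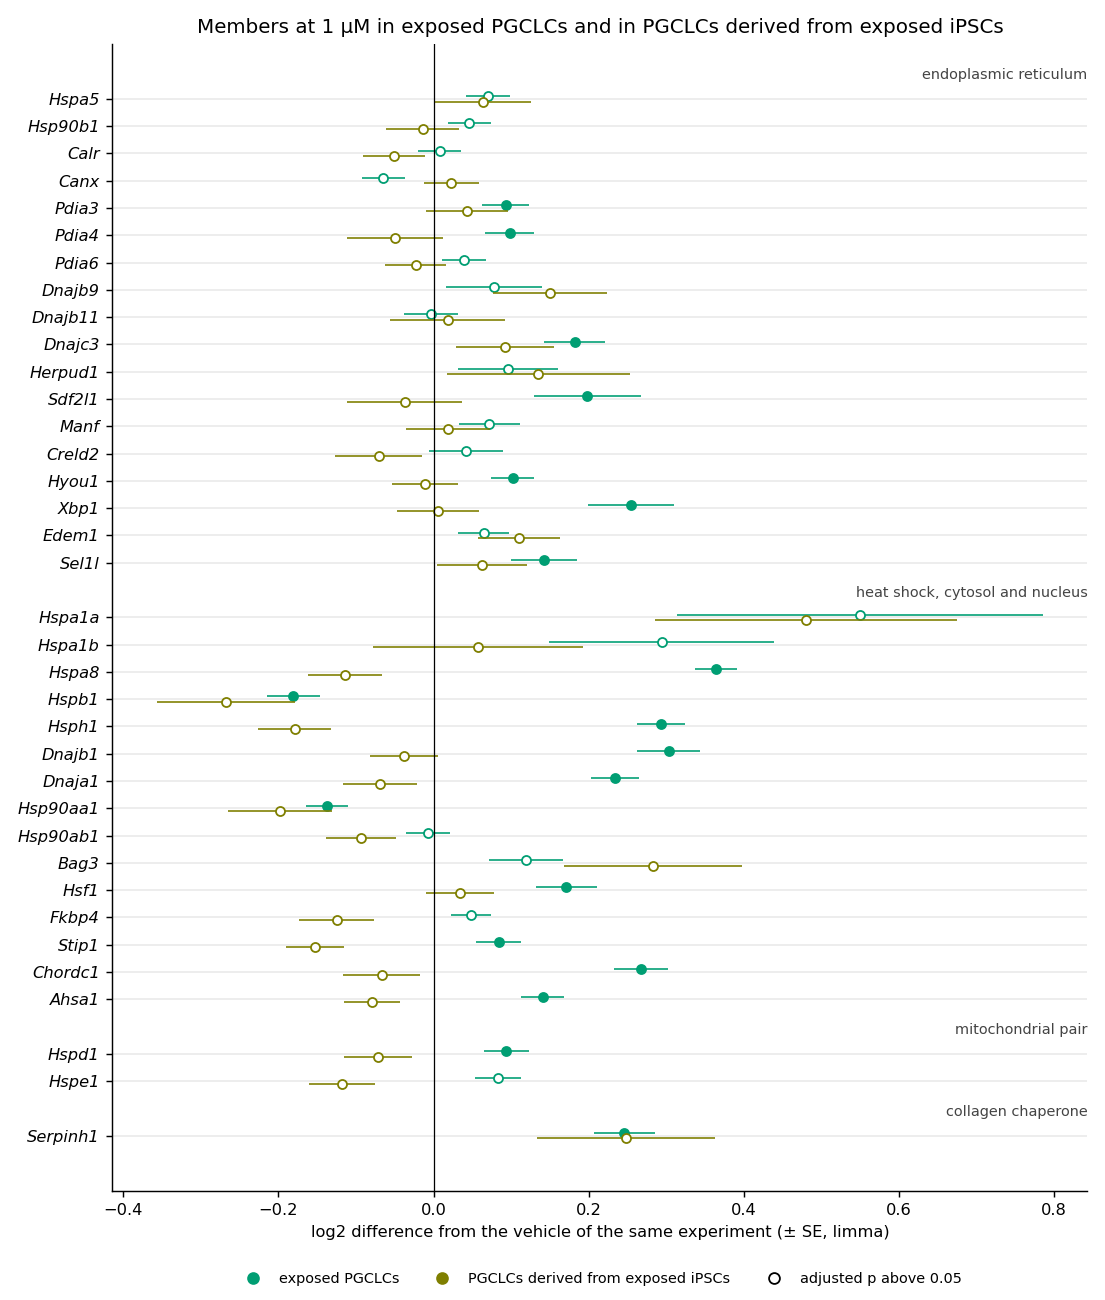
Log2 difference from vehicle of each of the 36 members at 1 µM in PGCLCs exposed themselves (green) and in PGCLCs derived from exposed iPSCs (olive), as limma estimates ± SE with 3 libraries per group and open symbols where the adjusted p exceeded 0.05. Hspa8, Hsph1, Dnajb1, Dnaja1 and Chordc1 lie at 0.23 to 0.36 in exposed PGCLCs and left of 0 in derived PGCLCs, where all 36 symbols are open.

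The second iPSC experiment repeated the 1 µM exposure and supplied the cells for derivation. No member was called in limma, among 0.0128% of all genes (2 genes called, and 1744 at an unadjusted p under 0.05; limma-voom on recovered reads called 0, with 1750). Here 1 of 3 exposed libraries stood apart. Hspa8 measured 4507, 4302 and 4423 CPM with vehicle and 4289, 5145 and 4404 CPM with BPS, and Hspb1 337, 326 and 355 CPM and 379, 560 and 389 CPM. In Hyou1 the same second library was lowest, at 315, 251 and 313 CPM against 348, 340 and 350 CPM with vehicle.

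Herpud1 nevertheless measured 28.7, 27.3 and 26.6 CPM with vehicle and 22.3, 24.5 and 23.9 CPM with BPS, with no overlap, a difference of -0.22 that did not pass (adjusted p = 0.398). Pdia4 measured 407, 404 and 395 CPM against 354, 345 and 360 CPM (-0.19, adjusted p = 0.372), and the ER sum 6121 to 6184 CPM against 5711 to 5823 CPM. The median over ER members was -0.10, with 14 of 18 negative, and 0.04 over heat shock members, against 0.00 over all genes. Without the second BPS library, 9 ER members were lower, and 2 heat shock members were higher and 1 lower, among 1484 genes called. The difference between the 1 µM responses of the second experiment and the dose series was tested directly in limma. There 0 genes passed (0%, 693 at an unadjusted p under 0.05, and limma-voom 0, with 709). With the spread of the second experiment, this does not show that the 2 experiments responded alike.

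PGCLCs derived from these iPSCs carried no called member, with 0% of all genes called by limma (2578 at an unadjusted p under 0.05; limma-voom 0, with 2638). Hsph1 measured 298, 271 and 291 CPM after vehicle and 254, 246 and 259 CPM after BPS, without overlap, a difference of -0.18 (adjusted p = 0.207). Stip1 measured 565, 580 and 550 CPM and 522, 502 and 501 CPM, likewise without overlap (-0.15, adjusted p = 0.207), and Hspb1 200, 219 and 200 CPM and 190, 148 and 179 CPM (-0.27, adjusted p = 0.24). The heat shock sum of 12050 to 13350 CPM stood against 11570 to 11890 CPM. The median was -0.08 over heat shock members, with 11 of 15 negative, 0.02 over ER members and 0.00 over all genes.

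In derived PGCLCs, pluripotency genes summed to 1699 to 2224 CPM after vehicle and 1207 to 1843 CPM after BPS, and stromal genes to 284 to 413 and 295 to 472 CPM. These overlapping ranges were wide compared with the exposed set. In simulated data with the spread of each comparison, 18.5% of genes changed 1.25-fold were recovered in derived PGCLCs and 2.99% in the second iPSC experiment, against 50.7% at 1 µM in the dose series, so changes of the size seen in Hsph1 were mostly not detectable there.

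The response of derived PGCLCs was then tested against that of exposed PGCLCs, to ask whether they respond alike. Of the 36 members 7 differed, all with the lower value in derived PGCLCs and all heat shock members, against 1.97% of all genes (0.852% lower and 1.12% higher). Hspa8 differed by -0.48 (adjusted p = 0.0014) and Hsph1 by -0.47 (adjusted p = 0.0015). Dnajb1, Dnaja1, Chordc1, Stip1 and Ahsa1 were the others. Hspb1 and Hsp90aa1, which fell in exposed PGCLCs, were not among them. Without the third vehicle library of the exposed set 3 members differed.

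Exposed PGCLCs were also tested against the second iPSC experiment at 1 µM. The difference was positive for the 4 members that passed, against 3.69% of all genes (1.5% higher and 2.2% lower). These were Dnajc3 (0.40, adjusted p = 0.028), Pdia4 (0.29, adjusted p = 0.0256), Hsph1 (0.36, adjusted p = 0.0173) and Chordc1 (0.37, adjusted p = 0.0356). Exposure format and recovery, flasks and 24 h against plates and 8 h, differed along with the cell type and cannot be told apart from it, and the count ranged from 0 to 21 when 1 library was left out, the highest being without the second BPS library of the iPSC experiment.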

How the data were processed

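RNA was sequenced from poly(A)-selected, directional libraries of 14 groups in 3 replicates each, 42 in all. Per the labels and methods, the authors checked reads with FastQC, aligned them to mm10 and counted them with Rsubread, scaled them by TMM and took log2 CPM with edgeR; no source used here gives the counting annotation, its strand setting or the versions of these R packages. The deposited values are log2 CPM per gene after a small added amount, 0.0313 CPM by fit, so that -5.00 is 0 reads. Undoing this gave whole reads (within 0.05) for 99.9% of values or more, 26693847 to 44524376 reads per library and scaling factors from 0.878 to 1.11. Intervals were not computed per value, and counts below a few reads carry counting error besides. No 2 libraries of a group agreed within counting noise (lowest mean chi-square 2.02 over genes with 20 reads), so each counted as 1 sample.

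Groups were taken from the sample titles. Genes with at least 0.5 CPM in at least 3 libraries of a fit were kept, which all 36 members passed, and no member was below 0.798 CPM in any library. Differences were fitted to the deposited log2 values with limma 3.58.1 (trend) in R 4.3.3, adjusted by Benjamini-Hochberg over all genes tested and called at an adjusted p of 0.05 or lower. The dose series was 1 fit of 12 libraries, each 1 µM comparison a fit of 6, the 6 vehicle groups a fit of 18, and each difference between responses a fit of 12. Levels are back-transformed CPM, per kilobase of summed exons where genes are compared. No count test but limma-voom on the recovered reads was run, as 1 of the alternatives. Other alternatives were the added CPM (1 or 4), no filter or 5 CPM, median-ratio or upper-quartile scaling, a replicate block, all 42 libraries or only the groups compared, and each library left out. The fits were tested on simulated data. A single value in 3 against 3 libraries cannot go below p = 0.1 in an exact permutation test, so no such test was used.

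The members, the wider gene lists and the markers were chosen with earlier results of these data known. All 36 members were accounted for, and values were given for 20 that the rule names (Hspa5, Hsp90b1, Xbp1, Dnajb9, Herpud1, Sdf2l1, Creld2, Manf, Serpinh1, Hspa1a, Hspa1b, Hspa8, Hspb1, Hsph1, Dnajb1, Hsp90aa1, Hsp90ab1, Hsf1, Hspd1 and Hspe1) where a comparison turned on them, for up to 4 called members per list and comparison by adjusted p, and for up to 3 genes per wider list, of which 1 gene is not reported here. Other members were named because they were the exceptions or completed a count, after their values were seen. Promoters are RefSeq windows on GRCm38.p6, the assembly of mm10. Figures were drawn with matplotlib 3.10.9.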

Additional observations from a re-analysis of the deposited data

Results flagged for a closer look

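Members were singled out where a direct test found that the response at 1 µM differed between cell types or between derived and exposed PGCLCs. No explanation was weighed for any of these members. Between exposed PGCLCs and iPSCs of the second experiment, the response was higher in PGCLCs by 0.29 for Pdia4, 0.40 for Dnajc3, 0.36 for Hsph1 and 0.37 for Chordc1 on the log2 scale, and their number went to 21 without the second exposed iPSC library and to 0 without any 1 of 5 others. Between derived and exposed PGCLCs, the difference (derived minus exposed) was -0.48 for Hspa8, -0.47 for Hsph1, -0.34 for Dnajb1, -0.30 for Dnaja1, -0.24 for Stip1, -0.34 for Chordc1 and -0.22 for Ahsa1, with adjusted p from 0.0014 to 0.0211 in limma. For Hspa8 and Hsph1 all 3 exposed PGCLC libraries were above their vehicle libraries, and all 3 derived libraries of Hsph1 were below theirs.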

How the results depend on the processing

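Of 278 member results that passed the test, 4253 of 4475 refits kept the direction and the call, 222 lost the call and 0 reversed. Of 478 that did not pass, 143 of 8132 refits passed and 1 reversed, Hspa5 in vehicle Sertoli against granulosa cells, which was 0.01 and became -0.058 after upper-quartile scaling. The cause of these changes was not tested. The member counts in this section stand without the share of all genes called in the same refit. They describe how stable a count was, and whether a change was particular to the members was not tested. Replicate numbers are shared between groups, but same-numbered libraries did not deviate together (correlations from -0.401 to 0.183), so the numbers do not pair the samples; a replicate block gave 4 ER and 0 heat shock members in the dose series at 1 µM, 1 and 5 in Sertoli cells, 0 members between 100 and 50 µM and 1 member between the responses of exposed PGCLCs and second-experiment iPSCs. At 1 µM in the dose series the heat shock count was also 0 with 1 or 4 CPM added, with no filter, after upper-quartile scaling and with only the groups compared, and the fit of all 42 libraries gave 5 ER and 2 heat shock members. At 100 µM, 11 heat shock members passed with only the groups compared. Sertoli ER members numbered 1 after median-ratio or upper-quartile scaling, and Sertoli heat shock members 1 after upper-quartile scaling and 0 with all 42 libraries. Granulosa heat shock members numbered 2 with limma-voom and 0 with all 42 libraries. Exposed PGCLCs had 3 ER members after upper-quartile scaling and 2 ER and 6 heat shock members with all 42 libraries, which also gave 6 ER and 2 heat shock members in the second iPSC experiment, 3 heat shock members in derived PGCLCs, 0 members between 100 and 1 µM and 10 between the responses of exposed PGCLCs and iPSCs. Between 100 and 1 µM, 0 passed with only the groups compared, and between 100 and 50 µM, 0 passed with 1 or 4 CPM added, no filter, 5 CPM, upper-quartile scaling, limma-voom or all 42 libraries.

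Leaving out 1 library gave 1 to 7 ER and 0 to 5 heat shock members at 1 µM in the dose series, 2 to 6 heat shock members at 50 µM (2 without the third 50 µM library), 0 to 2 ER (2 without the first vehicle library) and 0 to 4 heat shock members in Sertoli cells, 3 to 6 ER members in exposed PGCLCs, and 0 to 9 ER and 0 to 3 heat shock members in the second iPSC experiment (9 and 3 without the second BPS library). It gave 0 to 1 members between 100 and 1 µM (0 without the first or the third 100 µM library), 0 to 0 between 100 and 50 µM, 0 to 1 between the Sertoli and granulosa responses (1 without the first granulosa vehicle library), 0 to 21 between exposed PGCLCs and iPSCs, and 3 to 10 between derived and exposed PGCLCs (3 without the third vehicle library of the exposed set). Upper-quartile scaling, whose split of all called genes stands beside the comparisons it moved, shifted the median of all genes between vehicle Sertoli cells and iPSCs from -0.04 to -0.14.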
